A study of Mus musculus with 12 samples.

Results

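The 10 genes described here encode inflammatory and regulatory cytokines: Il1a, Il1b, Il1rn, Il18, Tnf, Il6, Il23a, Il12a, Il12b and Il10. They were chosen by name, as the non-control probes whose gene name on the array is one of these symbols. Each had 1 probe of 60 bases, so the set is 10 of the 39429 probes. Of the 10 genes, 8 passed the filter on dim probes and were among the 20370 genes tested, while Il12a and Il12b did not pass.

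Transcripts were measured on 12 Agilent arrays of the 4x44K mouse design, hybridised with Cy5-labelled cDNA amplified from macrophages that were isolated by sorting from pancreatic tumours of mice. The labels give 6 YFP+ and 6 YFP- macrophage samples. All came from female C57/B6 mice aged 8 to 10 weeks, all animals carried implanted tumours, and the genotype of each sample is not given in the labels. The design text of the series names FLT3-CRE/LSL-YFP mice, in which a Cre recombinase driven from Flt3, a receptor of blood progenitors, removes a stop cassette in front of YFP, so that YFP marks descendants of cells that had expressed Flt3. The comparison therefore asks whether macrophages with and without that mark differed in these cytokine transcripts. Macrophages of normal pancreas and of the other mice in that text were not analysed here. Each title carries 1 of 6 tumour numbers, each occurring once in each group, and arrays are named below by group and by the rank of that number from 1 to 6. The labels do not say that equal numbers mean the same animal, or that the samples of a group came from separate animals, so p-values measure the spread between these samples. For the labelled cell type 10 macrophage markers were read, among them Csf1r, Adgre1 and Cd68, and all 10 were well above background on all 12 arrays. So were 9 of 10 tested epithelial, 8 of 11 fibroblast and 8 of 9 pancreatic acinar markers, so this detection alone does not identify the cells.

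IL-1α and IL-1β are the classic early inflammatory ligands. Both bind the same receptor, and IL-1 receptor antagonist, the product of Il1rn, occupies that receptor without signalling. IL-1β and IL-18 are made as precursors that caspase-1 cleaves in the inflammasome. TNF and IL-6 are induced with IL-1 through NF-kB and AP-1 after Toll receptor signals. IL-10 restrains macrophage activation. IL-12 is a pair of the Il12a and Il12b chains, and IL-23 pairs the Il12b chain with the Il23a chain, so detection of the shared chain bears on both cytokines. In tumours, macrophages are a known source of most of these cytokines.

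The promoters of the 4 rapidly induced genes Il1a, Il1b, Tnf and Il6 are shown because NF-kB and AP-1 motifs and TATA boxes are the elements through which such genes are known to be switched on. RefSeq promoter sequences (GRCm38.p6) were found for 8 of the 10 genes, and not for Il10 and Il23a. The 100 bases before each start site are printed on the gene's strand, with motif matches in capitals.
Il1a, chr2:129309973-129310072: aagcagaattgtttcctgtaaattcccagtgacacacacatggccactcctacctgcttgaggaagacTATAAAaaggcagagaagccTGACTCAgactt
Il1b, chr2:129371140-129371239: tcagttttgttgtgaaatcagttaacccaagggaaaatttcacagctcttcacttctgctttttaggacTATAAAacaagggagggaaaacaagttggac
Tnf, chr17:35202008-35202107: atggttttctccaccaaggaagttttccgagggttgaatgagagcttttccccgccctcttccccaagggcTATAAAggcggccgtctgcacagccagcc
Il6, chr5:30013014-30013113: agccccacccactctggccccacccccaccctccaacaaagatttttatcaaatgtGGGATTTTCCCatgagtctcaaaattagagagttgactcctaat
Il6 lies on the plus strand, and the other 3 genes on the minus strand. The motifs were searched in the 250 bases before the start: the NF-kB form, GGGA and CC separated by any 4 bases, and the AP-1 form TGANTCA on both strands, and TATAAA on the gene's strand. TATAAA lay 32 to 27 bases before the start of Il1a, 31 to 26 before Il1b and 29 to 24 before Tnf, and 7.59% of the 32841 promoter windows of the table hold it. The Il1a window also held the AP-1 form, TGACTCA, 12 to 6 bases before the start, as do 6.75% of all windows. The Il6 window held the NF-kB form, GGGATTTTCC, 44 to 35 bases before the start, with an overlapping match on the other strand, and an AP-1 form beyond the printed stretch, 249 to 243 bases before the start. The NF-kB form occurs in 17.6% of all windows. In the 250 bases searched, Il1b and Tnf held neither the NF-kB nor the AP-1 form. Among the genes not printed, a window of Il1rn held both forms and a window of Il12a held the NF-kB form. These matches are descriptions of letters, and no binding was measured here.

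The sequences of a pair of probes were also read for stop codons. Neither the coding frame nor the place of a probe on its transcript was annotated. The Il1rn probe (mm9, chr2:24205094-24205153, plus strand) and the Il18 probe (mm9, chr9:50389761-50389820, plus strand) each hold a reading frame without a stop codon up to the TAG in capitals, close to the probe's 3′ end.
Il1rn probe: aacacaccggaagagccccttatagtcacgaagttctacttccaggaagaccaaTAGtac
Il18 probe: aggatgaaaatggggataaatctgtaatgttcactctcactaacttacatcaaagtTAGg
The Il12a probe (mm9, chr3:68502346-68502405, plus strand) is shown in part because it gave no signal above background on any array. It has 16.7% G and C and 4 copies of ATTTA, the core of AU-rich elements, and 8.01% of all 39429 probes hold at least 1 copy.
Il12a probe, 30 bases with ATTTA in capitals: ATTTAtATTTATTTAttttctATTTAttat

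No cytokine transcript of the set passed the test for a difference between YFP+ and YFP- macrophages. Of the 8 tested genes, 0 passed limma's moderated test at a Benjamini-Hochberg adjusted p of 0.05, and 0 had an unadjusted p under 0.05. In the same fit 1.75% of all 20370 genes were called (0.334% higher in YFP+ and 1.41% higher in YFP-), and 11.2% had an unadjusted p under 0.05, so that a count of 0 among 8 genes does not set them apart. The median log2 difference of the 8 genes, YFP+ minus YFP-, was -0.09, beside -0.03 for all genes tested. Of the 8 genes 2 lay above 0 and 6 below, while 47.2% of all genes tested lay above 0. The groups overlapped for all 8 genes, and did not overlap for 1.88% of all genes. Levels are given below as scaled log2 signal, which is the log2 of the processed spot intensity minus the log2 of that array's 75th percentile, so 0 is the array's own 75th percentile. Levels of different probes are not comparable with each other.

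**Figure D1:**
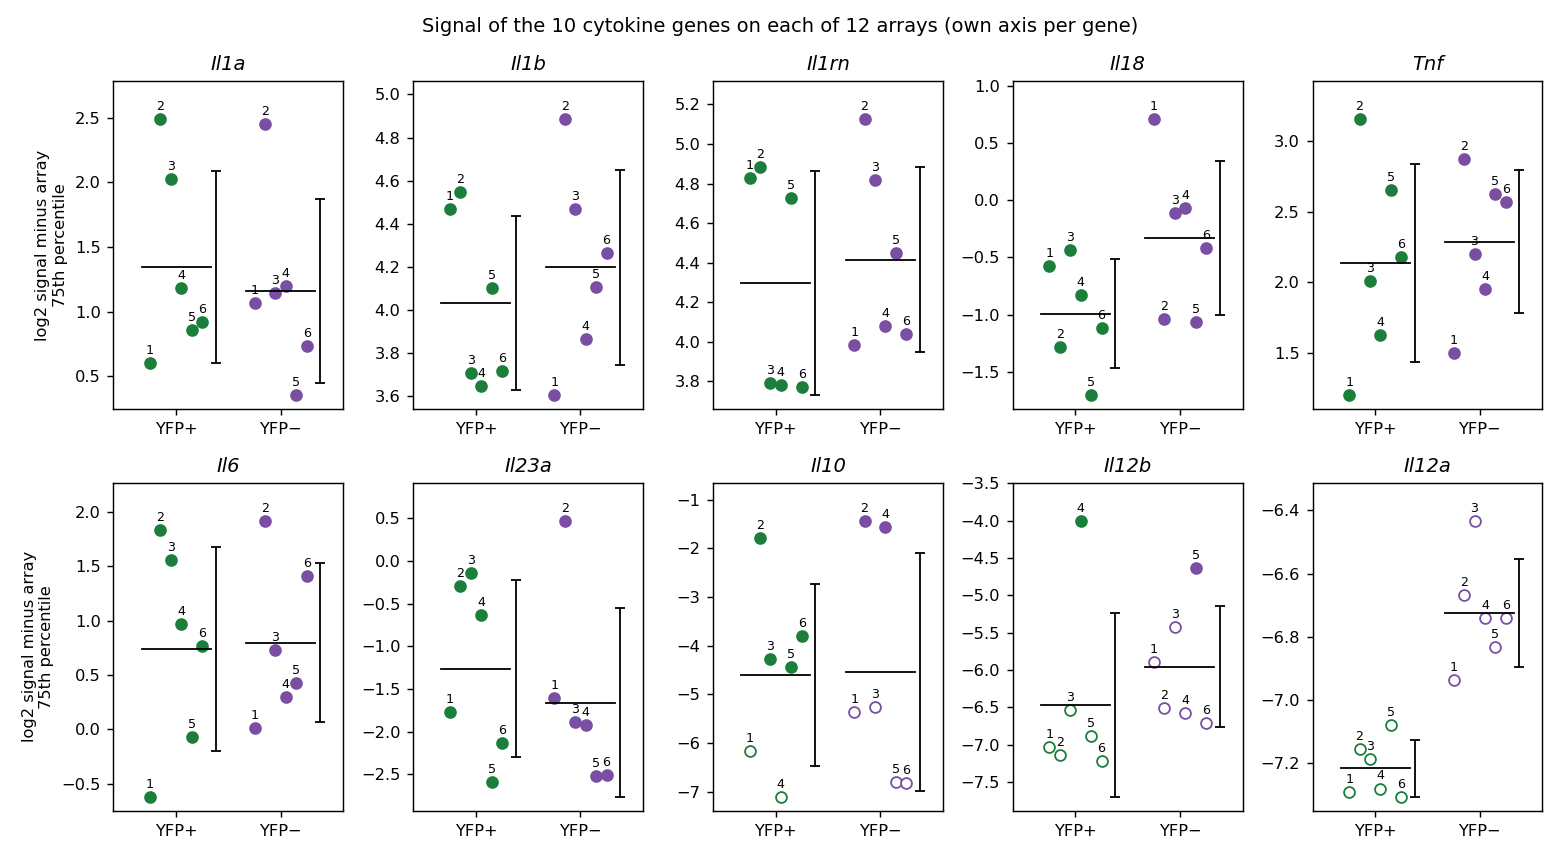
Scaled log2 signal (log2 intensity minus the array's 75th percentile) of each cytokine gene on the 6 YFP+ (green) and 6 YFP- (purple) arrays, with its own axis per gene. Filled points are well above background and open points are not, digits are the array numbers, horizontal lines are group means and bars are ± 1 SD. The groups overlap for all 8 tested genes, and the array numbered 2 is highest in both groups for 6 of them.

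Il1b and Il1rn were well above background on all 12 arrays, and their ranges overlapped between the groups. Il1b (probe at mm9 chr2:129190347-129190406, minus strand) had scaled log2 signals from 3.65 to 4.55 in YFP+ (median 3.91) and from 3.60 to 4.89 in YFP- (median 4.18). The groups overlapped over nearly their whole range, with the highest value on YFP- array 2. The difference was -0.17 (SE 0.26, limma adjusted p = 0.89), 6 arrays per group, with a 95% interval from -0.73 to 0.40, which allows a level in YFP+ from 0.604 to 1.31 times that in YFP-. Il1b was printed as 10 spots per array, and the SD among spots of an array had a median of 0.145 on the log2 scale, against a pooled SD of 0.43 among arrays of a group.

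Il1rn, the antagonist, ran from 3.77 to 4.88 in YFP+ (median 4.26) and from 3.98 to 5.13 in YFP- (median 4.26). Within YFP+, arrays 1, 2 and 5 lay near the top of this range and arrays 3, 4 and 6 at the bottom, below every YFP- array. The difference was -0.12 (SE 0.30, limma adjusted p = 0.94, 95% interval -0.77 to 0.53).

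Il1a (probe at mm9 chr2:129125994-129126053, minus strand), the other IL-1 agonist, was detected on all 12 arrays and varied more among arrays. It ran from 0.61 to 2.49 in YFP+ (median 1.05) and from 0.35 to 2.45 in YFP- (median 1.11). The array numbered 2 was the highest in each group. The difference was 0.19 (SE 0.40, limma adjusted p = 0.93, 95% interval -0.68 to 1.06).

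Il18, also a caspase-1 substrate, came nearest to a difference. Its scaled log2 signal was -1.71 to -0.43 in YFP+ (median -0.97) and -1.07 to 0.71 in YFP- (median -0.26). The groups overlapped, with 3 YFP+ arrays below all YFP- arrays, and YFP- was the higher of the same-numbered arrays for all 6 numbers. The difference was -0.66 (SE 0.33), or 1.58-fold higher in YFP-, with a 95% interval from -1.38 to 0.05. It did not pass the test (limma p = 0.067, adjusted p = 0.49; exact two-sided permutation p = 0.071). By slide, with 2 arrays of each group on each of 3 slides, the difference was -0.94, -0.09 and -0.95. Il18 is also made by epithelial cells, and all 10 epithelial and tumour cell markers tested were lower in YFP+, 5 of them past the threshold, with a median of -1.95. Sox9, among those 5, was above background on 1 of 6 YFP+ and 5 of 6 YFP- arrays. The mean scaled log2 signal of the 10 markers was -2.09 to -0.80 in YFP+ and -0.20 to 0.75 in YFP-. Their part in the Il18 values was not tested. In bulk samples, fewer cells of a type and less RNA per cell cannot be told apart.

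Tnf (probe at mm9 chr17:35336795-35336854, minus strand), the founding member of the TNF family, was detected on all 12 arrays. It ran from 1.20 to 3.15 in YFP+ (median 2.09) and from 1.50 to 2.87 in YFP- (median 2.39). In both groups array 1 was lowest and array 2 highest. The difference was -0.15 (SE 0.34, limma adjusted p = 0.93, 95% interval -0.90 to 0.60). The median SD among the 9 to 10 spots of an array was 0.0911 on the log2 scale, against a pooled SD of 0.61 among arrays of a group.

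Il6 (probe at mm9 chr5:30346367-30346426, plus strand), which signals through gp130, ran from -0.62 to 1.84 in YFP+ (median 0.87) and from 0.01 to 1.92 in YFP- (median 0.58). Array 1 was lowest and array 2 highest in both groups. The difference was -0.06 (SE 0.46, limma adjusted p = 0.98), and its 95% interval, -1.05 to 0.93, reaches from 0.482 to 1.91 times the YFP- level. Il6 is also made by fibroblasts, and all 11 fibroblast markers tested were lower in YFP+, 6 of them past the threshold, with a median of -1.74 and mean scaled log2 signals of -1.48 to -0.72 in YFP+ and -0.14 to 1.56 in YFP-. Lum, among those 6, was above background on 4 of 6 YFP+ and 6 of 6 YFP- arrays. The part of the fibroblast markers in the Il6 values was not tested.

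Il23a (probe at mm9 chr10:127733766-127733825, minus strand), the p19 chain of IL-23, was detected on all 12 arrays and spread the most of the 7 genes detected throughout. It ran from -2.59 to -0.15 in YFP+ (median -1.20) and from -2.52 to 0.47 in YFP- (median -1.90). Arrays 2, 3 and 4 of YFP+ and array 2 of YFP- lay above the other 8 arrays. The difference was 0.40 (SE 0.57, limma adjusted p = 0.88, 95% interval -0.84 to 1.64). Its pooled SD within groups was 1.07, above 95.9% of the 18531 probes that were above background on all 12 arrays, whose median SD was 0.51.

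The chains of IL-12 were at or near background. Il12a was above background on 0 of 12 arrays. Its unscaled intensity was 22.1 to 26.5 in YFP+ and 22.9 to 27.2 in YFP-, with a median of 24.8 in both. After scaling, the 6 YFP+ values lay below the 6 YFP- values, while the 75th percentile subtracted from them averaged an intensity of 3660 in YFP+ and 2641 in YFP-. No level or fold is given for it. Il12b (probe at mm9 chr11:44227121-44227180, plus strand), the p40 chain shared by IL-12 and IL-23, was above background on YFP+ array 4 and YFP- array 5 and on no other array. Its intensity was 240.7 on YFP+ array 4 and 107.3 on YFP- array 5, against group medians of 27.0 and 38.8. Its 9 to 10 spots per array had a median SD of 0.318 on the log2 scale. On YFP+ array 4 all 10 spots were above background, with an SD of 0.296. On YFP- array 5 only 6 of 10 were, and the spots ran from 30.1 to 383.6 (SD 1.47), so that detection rests on spots that disagree.

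Il10 (probe at mm9 chr1:132920943-132921002, plus strand) was detected on some arrays of each group. It was above background on YFP+ arrays 2, 3, 5 and 6 and on YFP- arrays 2 and 4. Its intensity ran from 27.9 to 1042 in YFP+ (median 175) and from 23.8 to 900 in YFP- (median 68.6). The fitted difference was -0.06 with an SE of 1.14 (limma adjusted p = 0.997) and a 95% interval from -2.53 to 2.42, so a several-fold difference in either direction was not detectable with these arrays. That value rests on dim signals on 6 arrays, and was -0.43 with those set to the lowest signal well above background on their array. This floor was -5.17 to -4.98 on YFP+ arrays and -5.12 to -4.37 on YFP- arrays. Il12a, above background on no array, would take -0.41 from the floors alone, so the -0.43 gives no direction for Il10. The values with a floor given below also depend on this difference in floors.

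**Figure D2:**
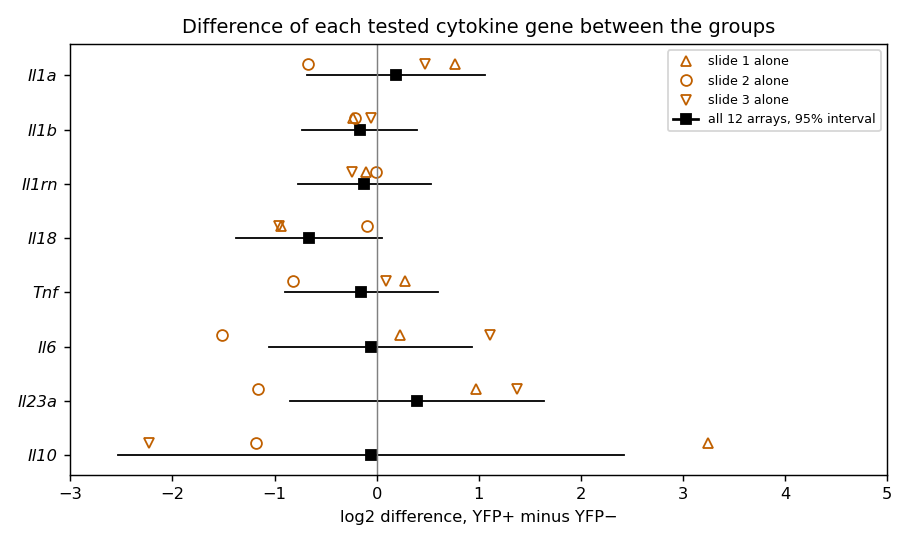
Log2 difference, YFP+ minus YFP-, for the 8 tested cytokine genes. Squares and lines are limma's estimates with 95% intervals over 12 arrays, and open symbols are the differences within each of 3 slides. Every interval spans 0, and the slide values of Il1a, Il6, Tnf, Il23a and Il10 lie on both sides of it.

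Array brightness moved with the groups. The 75th percentile of intensity was 3260 to 3930 on YFP+ arrays and 2121 to 3329 on YFP- arrays (exact two-sided permutation p = 0.0043). With log2 brightness as a covariate, the differences of Il1b, Il1rn, Il6, Tnf and Il10 turned to 0.72, 0.97, 0.14, 0.50 and 1.11, and 0 of the 8 genes were called. Median centring moved the median of all genes from -0.03 to 0.18 and that of the 8 cytokine genes from -0.09 to 0.12, so the sign of the differences of Il1b, Il1rn, Il6, Tnf and Il10, which it turned, rests on the scaling. Each slide held 2 arrays of each group. Slide 2 holds YFP- array 2 and also YFP+ array 1, the lowest YFP+ array for Il1a, Il6 and Tnf. It gave differences of -0.67 for Il1a, -1.52 for Il6, -0.82 for Tnf and -1.16 for Il23a. Slide 1, which holds YFP+ array 2, gave 0.76, 0.23, 0.28 and 0.98 for the same genes, and slide 3 gave 0.47, 1.11, 0.09 and 1.38.

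The highest values of most cytokine genes fell on arrays of the same number in both groups. The arrays numbered 2 had the highest value of their group for 6 of the 8 tested genes in both groups: Il1a, Il1b, Il1rn, Il6, Tnf and Il10. For Il23a the same number was highest in YFP- and next to highest in YFP+. Number 2 was the highest in both groups for 2.81% of all 20370 genes, and no other number was the highest in both groups for any of the 8. For all genes the shares of the other numbers were 1.44% for number 1, 1.61% for number 3, 5.71% for number 4, 3.3% for number 5 and 5.53% for number 6. Numbers 4, 5 and 6 have both arrays on the same slide, while numbers 1, 2 and 3 have them on different slides. Number and slide therefore cannot be told apart in these shares. This pattern was seen in the values and then counted, and it is a description. In a fit with number and group as factors, also chosen after the values were seen, 0 of the 8 genes had a limma F-test for number with an adjusted p under 0.05, as did 0 of all 20370 genes. At an unadjusted p under 0.05 there were 5, namely Tnf, Il1a, Il6, Il18 and Il23a, beside 7.31% of all genes. The lists described below differed in this count. The same arrays were highest in both groups for 4 of 16 NF-kB genes, 4 of 15 immediate early genes and 3 of 9 inflammasome genes. The count was 1 of 13 for TNF signalling, 1 of 10 for the IL-6 family and 1 of 7 for the IL-1 and IL-18 receptors. It was 0 of 10 for receptor adaptors, 0 of 9 for the IL-10 family, 0 of 5 for IL-12 and IL-23 partners, 0 of 8 for mRNA stability regulators, 0 of 10 for macrophage markers and 0 of 1 for other IL-1 ligands. Without the arrays numbered 2, 0 cytokine genes were called between groups, and the differences of Il1a, Tnf, Il18 and Il23a were 0.22, -0.24, -0.74 and 0.63.

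Il1b and its antagonist Il1rn followed each other over the arrays. Of 28 pairs of the 8 genes, 3 had a Benjamini-Hochberg adjusted Pearson p under 0.05, and of these only Il1b and Il1rn also had an adjusted Spearman p under 0.05. Il1b and Il1rn had r = 0.909 (permutation p = 1.6e-04, adjusted 0.00224) and Spearman's rho = 0.881 (permutation p = 2.9e-04, adjusted 0.00812) over 12 arrays. The correlation was 0.955 within YFP+ and 0.883 within YFP-, and 0.889 without the 2 arrays farthest from the median of Il1b. Il1a and Il23a had r = 0.895 (permutation p = 9e-05, adjusted 0.00224) and rho = 0.776 (permutation p = 0.00415, adjusted 0.0581), with 0.821 and 0.968 within the groups. Without the arrays numbered 2, which were the farthest from the median of Il1a, r was 0.813. Il1a and Il6 had r = 0.757 (permutation p = 0.00438, adjusted 0.0409) and rho = 0.657 (permutation p = 0.0235, adjusted 0.164), which fell to 0.524 without the arrays numbered 2 and so rested in part on them. Tnf and Il18 ran in opposite directions, with r = -0.599 (permutation p = 0.0401, adjusted 0.160) and rho = -0.622 (permutation p = 0.0352), which did not pass the correction. Within groups that pair had r = -0.732 in YFP+ and -0.951 in YFP-. Slide went with both Il1b and Il1rn. Il1b ran from 3.60 to 3.86 on slide 3, 3.72 to 4.55 on slide 1 and 4.10 to 4.89 on slide 2. Il1rn ran from 3.78 to 4.08, 3.77 to 4.88 and 4.45 to 5.13 on the same slides. The part of slide in these correlations was not tested. The same 6 tumour numbers occur in both groups and arrays share slides, so the 12 arrays may not be independent and these p-values may be too small.

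**Figure D3:**
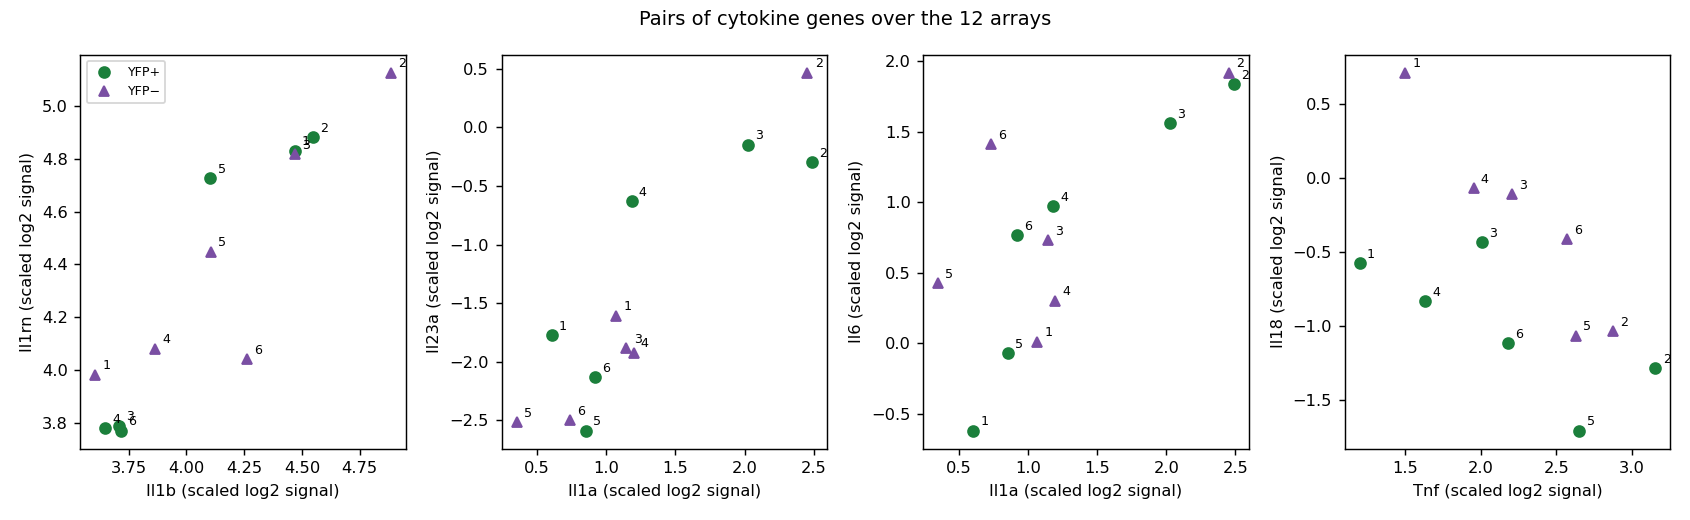
Scaled log2 signals of 4 pairs of cytokine genes on the 12 arrays, YFP+ as circles and YFP- as triangles, with the array numbers. Il1b and Il1rn vary together (r = 0.909), as do Il1a and Il23a (r = 0.895) and Il1a and Il6 (r = 0.757), while Tnf and Il18 run in opposite directions (r = -0.599).

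Among all genes tested, the genes whose pattern over the 12 arrays was most like each cytokine were named by Pearson's r. Il1a was closest to Ptgs2, the inducible cyclooxygenase, at r = 0.962, to Tnfaip3, the NF-kB inhibitor A20, at 0.901, and to Il23a, at 0.895. Il23a was closest to Il1a itself, to Ptgs2 (r = 0.872) and to Snapc1 (0.863). Il1b was closest to Zmynd8 (r = 0.948), Pank4 (0.932) and Evl (0.921). Il1rn was closest to Hsp90aa1, an inducible chaperone (r = 0.957), Psme2b (0.939) and Tagln2 (0.926). Il6 was closest to Npepps (r = 0.915), Slc20a1 (0.853) and Mynn (0.844). Tnf was closest to Pxk (r = 0.922), Fbxo43 (0.893) and Sqstm1, an autophagy receptor (0.868). Il18 was closest to Zwint (r = 0.860), Itga6 (0.839) and Slc40a1, the iron exporter ferroportin (0.839). Il10 was closest to Ercc3 (r = 0.845), Ap5m1 (0.809) and H3c8 (0.797). The highest of 20370 correlations over 12 arrays is large by selection, and these values carry no test.

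Genes that produce, receive and relay these cytokines also showed few differences. In the lists below, 1 gene, Il19, passed the threshold, and it was lower in YFP+. Receptors, adaptors and NF-kB genes had more members above 0 than below, with none passing. All counts stand beside the 1.75% of all genes called and the all-gene median of -0.03, and the small medians below share the dependence on scaling given above. Counts above 0 stand beside 47.2% of all genes above 0, or 13593 of 20370 with median centring.

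Of the receptors and decoys of IL-1 and IL-18, 7 of 9 were tested, 0 passed, 6 lay above 0, and their median was 0.90. That median is the value of Sigirr, which was above background on 6 of 6 YFP+ and 4 of 6 YFP- arrays. Only 3 of the 7 genes were above background on all 12 arrays, so the median rests in part on dim values. The list median was 0.37 with normexp background correction, and 4 of the 7 lay above 0 with brightness as a covariate. The smallest p was that of Il18r1, the ligand-binding IL-18 receptor chain. It was above background on 6 of 6 YFP+ arrays, at intensities of 164.5 to 571.6, and on 2 of 6 YFP- arrays, at 23.7 to 252.1. The fitted difference of 2.20 (SE 0.62, limma adjusted p = 0.12) rests on YFP- values below background. It was 0.84 with dim values set to the lowest signal well above background on their array, a floor that takes the place of values not measured. It passed with array weights (2.44, limma adjusted p = 0.041) and without YFP- array 4 (2.65, limma adjusted p = 0.023). Of the other IL-1 family ligands only Il33, an alarmin of stromal and epithelial cells, was tested, at -2.10 (SE 0.63, limma adjusted p = 0.15). It was above background on 4 of 6 YFP+ and 6 of 6 YFP- arrays, and was -1.80 with dim values at the floor of their array, with the lower value in YFP+ for all 6 numbers. Of 9 inflammasome and IL-1 processing genes 0 passed (median -0.02), and Nlrc4, a sensor that activates caspase-1, had the smallest p (-0.77, SE 0.28, limma adjusted p = 0.28). Of 10 receptor adaptors 0 passed and 9 lay above 0 (median 0.23), led by the kinase Irak4 (0.37, SE 0.18, limma adjusted p = 0.49).

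Of 13 tested genes of TNF receptors, release and signalling, 0 passed (median 0.18). Ripk1, the kinase recruited to TNF receptor 1, had the smallest p (-0.52, SE 0.20, limma adjusted p = 0.31). Of 10 tested genes of the IL-6 receptors and family, 0 passed (median 0.15), and Osm, an IL-6 family cytokine of macrophages, was higher in YFP+ for all 6 numbers at 0.72 (SE 0.25, limma adjusted p = 0.27). Of 5 tested partners and receptors of IL-12, IL-23 and IL-27, 0 passed and all 5 lay above 0 (median 0.57), with the smallest p for Stat4, which relays IL-12 signals (0.86, SE 0.50, limma adjusted p = 0.59). That median is the value of Il27ra, which was above background on 5 of 6 YFP+ and 1 of 6 YFP- arrays, so it rests on dim YFP- values. Only 3 of the 5 genes were above background on all 12 arrays. The list median was 0.10 with normexp, with 4 of 5 above 0, and 3 of 5 lay above 0 with brightness as a covariate. With normexp the medians of the TNF and IL-6 lists were 0.105 and 0.057, and with brightness as a covariate those of the IL-6 and IL-10 lists were 0.62 and 0.071.

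Among 9 tested genes of the IL-10 receptors and family, 7 lay above 0 (median 0.25) and 1 fell in YFP+, the IL-10 family cytokine Il19. Its intensity was 22.1 to 125 on YFP+ arrays, of which 2 were above background, and 96.2 to 1873 on YFP- arrays, of which 5 were. YFP- array 4 lay among the YFP+ arrays, and the other 5 YFP- arrays lay above all of them. The fitted difference was -3.60 (SE 0.75, limma adjusted p = 0.030). Dim values stand in both groups, so no fold is given. With those set to the floor of their array the difference was -3.20. The call was lost with the tumour number as a block (limma adjusted p = 0.10), with brightness as a covariate (-1.68, limma adjusted p = 0.56) and without the arrays numbered 2 (limma adjusted p = 0.12), and without each of 10 of the 12 arrays, the exceptions being YFP- arrays 1 and 4. Its size was -1.89 with normexp background correction and -1.68 as the mean of its probes, and both were called. Il19 is known from epithelial cells as well as macrophages, and the epithelial markers named above were lower in YFP+ too, a part that was not tested.

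Of 16 NF-kB subunits and inhibitors, 0 passed and 14 lay above 0 (median 0.18), with the smallest p for the kinase Chuk (0.36, SE 0.18, limma adjusted p = 0.49). Of 8 regulators of cytokine mRNA stability 0 passed (median -0.17), with the smallest p for Zfp36l2 (-0.20, SE 0.18, limma adjusted p = 0.77). Of 15 tested immediate early genes, which also respond to cell dissociation, 0 passed (median -0.09), with the smallest p for the transcription factor Egr1 (-0.57, SE 0.21, limma adjusted p = 0.28).

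**Figure D4:**
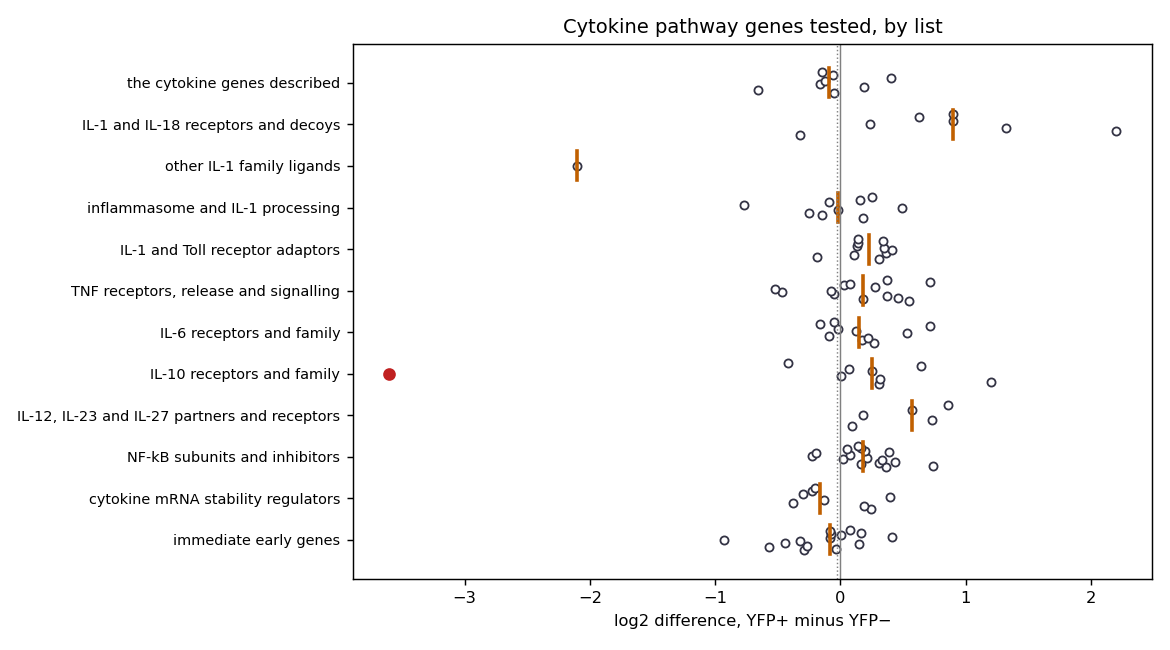
Log2 difference, YFP+ minus YFP-, of each tested gene in the cytokine set and 11 pathway lists. Points are genes, the filled red point (Il19) is the gene with an adjusted p under 0.05, orange bars are list medians, and the dotted line is the median of all genes, -0.03.

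Markers of other cells that make these cytokines were read on the same arrays. Of 10 macrophage markers 0 passed (median -0.13), with the smallest p for the integrin Itgam (-0.52, SE 0.37, limma adjusted p = 0.68). Of 9 tested neutrophil markers 0 passed, 6 lay below 0 and 3 above, and the median was -1.60. The smallest p was that of Ltf, a granule protein, at -1.65 (SE 0.41, limma adjusted p = 0.072). The 3 above 0, named after their values were seen, were Cxcr2, a chemokine receptor (1.02, SE 0.30, limma adjusted p = 0.15), Retnlg (1.71, SE 1.55) and Mmp8 (0.53, SE 0.83). With normexp 3 of the 9 were called (median -1.01), and with the tumour number as a block 1 was. Ly6g, Elane and Ngp did not pass the filter. The mean scaled log2 signal of the neutrophil markers was -2.03 to -0.77 in YFP+ and -1.19 to -0.23 in YFP-, and neutrophils are a source of Il1b and Il1rn. Of 8 tested dendritic cell markers 0 passed (median 0.76), led by Irf4 (0.85, SE 0.27, limma adjusted p = 0.17), while Xcr1 and Clec9a did not pass the filter. Among fibroblast markers, the smallest p-values of those that fell were those of Postn (-2.53), Col3a1 (-1.72), Col1a1 (-1.69) and Col1a2 (-1.84), which encode matrix proteins. Among epithelial markers they were those of the keratins Krt8 (-2.59), Krt18 (-2.11) and Krt19 (-2.94) and of the mucin Muc1 (-2.31). Of 8 mast cell and basophil markers 2 were tested, and both, Mcpt8 (-3.80) and Tpsb2 (-1.25), fell in YFP+, while Cpa3, Tpsab1, Fcer1a, Ms4a2, Cma1 and Prss34 did not pass the filter. All 9 acinar markers lay below 0 (median -1.59), and 1 fell in YFP+, Cela1, which was above background on 2 of 6 YFP+ arrays (limma adjusted p = 0.0495). Of the T and NK cell markers 0 of 5 passed, with the smallest p for Cd3e (0.71, limma adjusted p = 0.63), and of the endothelial markers 0 of 8, with the smallest p for Cdh5 (-0.71, limma adjusted p = 0.78). Of the B cell markers 0 of 6 passed. The smallest p was that of Jchain, the joining chain of secreted immunoglobulins, which was above background on 6 of 6 YFP+ and 3 of 6 YFP- arrays. Its fitted difference was 4.78 (SE 1.47, limma adjusted p = 0.17), or 4.13 with dim values at the floor of their array, and it was higher in YFP+ for all 6 numbers. The part of these cells in the cytokine values was not tested.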

How the data were processed

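The deposited intensity values come, per the file headers, from Agilent Feature Extraction 11.5.1.1 (red channel; background-subtracted, spatially detrended, not scaled between arrays). The authors' deposited value table, on a log2 scale per its values and with equal medians across columns, served as an alternative. Outlier spots and 1377 control spots were left out, spots of a probe were averaged, log2 was taken, and the 75th percentile of the array was subtracted. A probe was kept if 6 or more of the 12 arrays showed it well above background (25434 probes), and each gene took its probe with the highest mean (20370 genes). Of all probes, 0 were saturated. The array number limits the precision.

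The comparison used limma 3.58.1 under R 4.3.3 (lmFit, eBayes), with p-values adjusted by Benjamini-Hochberg across every gene tested and called under 0.05, after a check on simulated data. Correlations used 100000 permutations (Python 3.11.15, scipy 1.17.1). The cytokine genes and lists were chosen with earlier results of these data known. Named were the cytokine genes, up to 4 called genes of each list or its gene with the smallest p, and the 3 genes most like each cytokine. Alternatives are given in the closing section. Probe positions are mm9, per the file headers, and promoter positions are GRCm38.p6.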

Additional observations from a re-analysis of the deposited data

Results flagged for a closer look

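In a group of 6 arrays, the highest or lowest value was marked where its gap to the nearest other as a share of the group's range exceeded Dixon's 95% critical value. Of 20 groups checked (10 genes in 2 groups), 2 were marked, and chance marks about 1 in 20. For Il12b, YFP+ array 4 had a scaled log2 signal of -4.0, with the nearest other at -6.54 (gap over range 0.788). It was the only YFP+ array with Il12b above background. For Il23a, YFP- array 2 had 0.47, with the nearest other at -1.61 (gap over range 0.695). In YFP+, the array numbered 2 shared the upper part of the range with arrays 3 and 4.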

How the results depend on the processing

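The number of cytokine genes called stayed 0 under all alternatives run, and the lowest adjusted p was 0.11 (Il18, tumour number and slide as blocks). Il18 kept its sign throughout (-1.51 to -0.09). Its unadjusted limma p, 0.067 in the main fit, was 0.013 with tumour number, 0.025 with slide and 0.0047 with both as blocks. That p was 0.017 with brightness as a covariate, 0.094 with quantile normalization and 0.22 with median centring. Correlations of same-numbered arrays ran from -0.30 to 0.37, and 4 of 6 were over 0.1. For numbers 4, 5 and 6, whose YFP+ and YFP- arrays share a slide, they were 0.37, 0.19 and 0.28. For numbers 1, 2 and 3, whose arrays lie on different slides, they were -0.30, 0.11 and -0.13. Number and slide cannot be told apart here, so these correlations do not decide whether the numbers pair the samples. The main fit leaves them unpaired. With the tumour number as a replicate block, Il18 was -0.66 (SE 0.20, limma adjusted p = 0.23), all genes called were 296 in place of 356, and pathway genes called were 0 in place of 1. All genes called were 556 with slide as a block, 201 with both blocks, 12 with brightness as a covariate, 547 with normexp, 233 with probes above background on all arrays and 209 without the arrays numbered 2. Pathway genes called were 0 with both blocks, the covariate, the all-array filter or without the arrays numbered 2, and 2 with array weights. Leaving out each array gave 266 to 383 genes and 0 to 2 pathway genes. Signs turned for Il1b (covariate 0.72, deposited values 0.017, median centring 0.041), Il1rn (covariate 0.97, quantile 0.046, deposited values 0.046, centring 0.088), Il6 (covariate 0.14, normexp 0.015, centring 0.15, slide 1 0.23, slide 3 1.11), Tnf (covariate 0.50, centring 0.057, slide 1 0.28, slide 3 0.092), Il10 (covariate 1.11, quantile 0.10, deposited values 0.026, centring 0.15, array weights 0.50, slide 1 3.25, without the arrays numbered 2 0.0043), Il1a (slide 2 -0.67) and Il23a (slide 2 -1.16). Leaving out each array gave -0.041 to 0.45 for Il1a, -0.29 to -0.03 for Il1b, -0.24 to 0.022 for Il1rn, -0.28 to 0.21 for Il6, -0.35 to 0.037 for Tnf, -0.62 to 0.57 for Il10, -0.81 to -0.45 for Il18 and 0.18 to 0.83 for Il23a. The cause was not tested. Leaving out the arrays numbered 2 was chosen after seeing the data. Signal over background limits Il10, Il12a and Il12b, and the filter on all arrays leaves no value for Il10.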

Other observations

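Il1a and Il1b, ligands of the same receptor, had r = 0.338 over the 12 arrays (permutation p = 0.279, adjusted over 28 pairs 0.507) and rho = 0.119 (permutation p = 0.716), and r = -0.494 without the arrays numbered 2. Tnf and Il6 had r = 0.630 (permutation p = 0.0299, adjusted 0.140) and rho = 0.524 (permutation p = 0.0842), and r = 0.381 without the arrays numbered 2. In the fit with tumour number as a factor, limma's F-test over all genes gave an adjusted p = 0.59 for Tnf and an adjusted p = 0.84 for Il1b, the lowest and the highest of the 8 cytokine genes.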
